A study of Mus musculus with 2 samples.

Results

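Glypicans are heparan sulphate proteoglycans that a glycosylphosphatidylinositol (GPI) anchor holds on the outer face of the cell membrane. The genes were taken by symbol, Gpc1 to Gpc6. A row was found for 5 of these 6 among the 30223 genes of the table, and Gpc2 is not analysed here. Transcripts were measured in single hippocampal cells of wild-type control mice and of mice homozygous for the knock-in allele Pigv341E, both of strain C57Bl.6/J, with 10x Genomics droplets. Each genotype is 1 library, pooled from the 8 hippocampi of 4 mice dissociated mechanically in the cold, and the labels used here give no age. Without replicate libraries the spread between mice is unknown, no test was made, and an effect of genotype cannot be told apart from one of the library. Pigv encodes a mannosyltransferase that builds the GPI anchor, so that the gene edited in the knock-in acts on the anchor that every glypican protein carries. The measurements below are of glypican transcripts and not of protein or of anchors.

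A glypican has a folded extracellular domain, a stretch near the membrane where heparan sulphate chains are attached, and the anchor. Through the chains and the folded domain glypicans bind Wnt, Hedgehog and fibroblast growth factor ligands and, at synapses, receptors such as the phosphatase Ptprs and the postsynaptic protein Lrrtm4. Gpc4 and Gpc6 are known as factors that astrocytes release and that promote glutamatergic synapses, Gpc5 is known as a glypican of astrocytes, and Gpc3 is known as a brake on Hedgehog signalling.

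Heparan sulphate chains are built on serines that a glycine follows, so the coding stretches that hold such serine-glycine codon pairs within the last 100 codons are shown for 4 of the genes to place the attachment region. They were read 5′ to 3′ on the coding strand from GENCODE M21 transcripts (build GRCm38), with the serine-glycine codon pairs in capitals and 3 codons on either side of the group:
Gpc3: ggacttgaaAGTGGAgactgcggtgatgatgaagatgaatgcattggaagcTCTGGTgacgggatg
Gpc4: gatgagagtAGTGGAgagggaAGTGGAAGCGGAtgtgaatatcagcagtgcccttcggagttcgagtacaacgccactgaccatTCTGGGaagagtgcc
Gpc5: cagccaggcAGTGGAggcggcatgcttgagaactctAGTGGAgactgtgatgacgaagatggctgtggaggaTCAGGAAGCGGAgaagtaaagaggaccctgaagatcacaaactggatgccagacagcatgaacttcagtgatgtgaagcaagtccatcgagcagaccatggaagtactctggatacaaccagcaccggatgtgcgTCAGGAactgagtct
Gpc6: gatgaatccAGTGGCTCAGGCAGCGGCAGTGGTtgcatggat

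In Gpc6 the 4 pairs stood in 1 unbroken run. Gpc4 held 4 pairs, of which 1 stood apart from the other 3. Gpc5 held 5 pairs, inside the printed stretch of codons 483 to 556 of 572, and Gpc3 held only 2. A pair is a match of letters and does not show that a chain is attached there.

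The Gpc6 stretch lies in coding exon sequence at chr14:117974886-117974927 on the plus strand. The stretches of Gpc3 and Gpc4 lie on the minus strand at chrX:52314871-52314936 and chrX:52053626-52053724. The Gpc5 stretch starts at chr14:115788218 and ends at chr14:116524386 on the plus strand, and intron sequence interrupts it. The genes lie in pairs: Gpc4 (chrX:52053021-52165252) and Gpc3 (chrX:52272426-52613950) are 107.2 kb apart, and Gpc5 (chr14:115092215-116525179) and Gpc6 (chr14:116925315-117976544) are 400.1 kb apart. Gpc1 lies alone at chr1:92831645-92860779. Within the spans of Gpc3 and Gpc5 the annotation holds genes on the opposite strand. Whether the counting used strand is not given in the sources used here, so reads of these genes may be included in the values of Gpc3 and Gpc5.

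The table held 15930 cells, 7094 wild-type and 8836 knock-in, and 28 cell barcodes occurred in both libraries. The deposited values had been corrected for depth, with median totals per cell of 8631 (wild-type) and 9608 (knock-in) and medians of 3122 and 3736 genes above 0, so the sequencing depth is unknown. Clustering without the glypicans gave 35 clusters, of which 5 stayed unnamed (4.88% of wild-type and 6.13% of knock-in cells), and 15 marker-named classes held at least 50 cells in each library. Neurons of the dentate gyrus, CA1 and CA3, the defining cells of hippocampus, were all found by their markers. Scrublet called 0.860% of wild-type and 2.37% of knock-in cells as doublets, which were kept. The level of Pigv itself was 0.0886 (wild-type) and 0.10 (knock-in) per 10000. An edited codon need not change the transcript level, so this does not check the labels.

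Levels are given per 10000, as what a gene contributed to every 10000 of the summed values in a class of cells. Ratios are on the log2 scale, positive where the knock-in level was higher, and 0.1 was added to each level first, which shrinks the ratios of low genes. Over all cells, none of the 5 glypicans differed 2-fold between the libraries. Gpc4 stood at 0.741 in wild-type and at 0.705 in knock-in cells (log2 ratio -0.063). Gpc5 was at 9.67 and 10.2, a ratio of 0.078. Gpc6 was at 2.39 and 3.14, and its ratio of 0.38 was the largest of the 5. Gpc3 was at 0.204 and 0.219 with a ratio of 0.071, and Gpc1 at 0.0293 and 0.0277 with a ratio of -0.017. The median ratio of all genes of level 1 or more was -0.076. The libraries also differed in their mix of cells. Dentate granule neuron-like cells were 20.5% of wild-type and 16.4% of knock-in cells, and fibroblast-like cells 1.54% and 2.81%. With each cluster given the same weight in both libraries, the ratio of Gpc6 was 0.069.

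**Figure D1:**
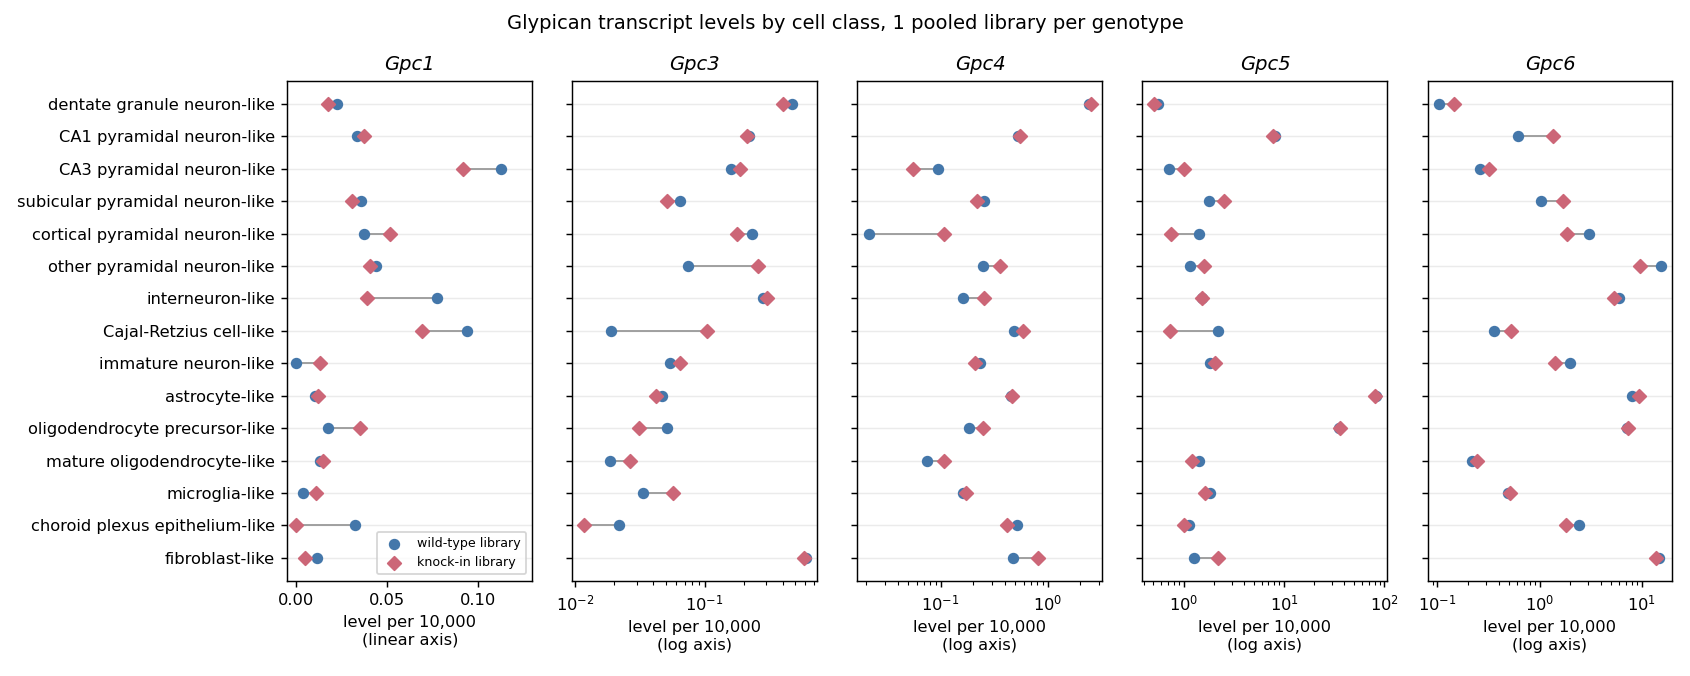
Level per 10000 of each glypican (panels) in the 15 cell classes with at least 50 cells per library (rows), with circles for the wild-type and diamonds for the knock-in library and a line joining them. Gpc1 is on a linear axis and the others on log axes; Gpc4 is highest in dentate granule neuron-like cells (2.42 and 2.56) and Gpc5 in astrocyte-like cells (83.0 and 80.8) in both libraries.

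Among classes with at least 50 cells per library, Gpc5 was highest in 2 glial classes and in CA1. In astrocyte-like cells it reached levels of 83.0 (wild-type) and 80.8 (knock-in) per 10000, and 97.2% (exact Clopper-Pearson 95% interval 95.5 to 98.3) and 96.3% (94.8 to 97.5) of these cells had a value above 0. These intervals, and all intervals below, cover only the error of counting a limited number of cells. They take the corrected values as given, and cover neither the correction for depth nor the spread between mice. Astrocyte-like cells were 8.43% and 9.26% of the cells and carried 67.2% and 67.2% of all Gpc5. Oligodendrocyte precursor-like cells, the dividing cells from which myelin-forming cells arise, followed at 35.4 and 36.2, with 97.2% and 96.7% of cells above 0. CA1 pyramidal neuron-like cells, the output neurons of the hippocampus proper, came next at 8.18 and 7.76, with 87.3% and 86.9% of cells above 0. The 2 library values of these 3 classes did not overlap those of any other class with at least 50 cells per library. Below them, the other 12 classes lay between 0.502 and 2.51 and their orders differed between the libraries. Dentate granule neuron-like cells were lowest in both, at 0.561 and 0.502.

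The level of Gpc5 differed within astrocyte-like cells. In the larger cluster, led by Rgs20 and the glutamate transporter Slc1a2, it was 93.5 and 90.5 per 10000 over 510 and 707 cells. In the smaller cluster, led by Myoc and the filament gene Gfap, it was 23.5 and 18.9 over 88 and 111 cells. The lower level in the Myoc and Gfap cluster was thus present in both libraries. Within CA1, Gpc5 was at 8.92 and 8.87 in the larger cluster (723 and 728 cells), which holds the CA1 markers Fibcd1 and Galntl6 among its leading genes. It was at 3.95 and 5.02 in the smaller (125 and 293 cells), led by Pde11a, Dcn and Rspo2.

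Many cells of other types also had a Gpc5 value above 0. Mature oligodendrocyte-like cells had one in 75.7% of wild-type and 66.6% of knock-in cells, at levels of only 1.41 and 1.21, and microglia-like cells in 70.4% and 60.6%, at 1.82 and 1.65. After thinning every cell to a total of 1000, the shares were 15.2% and 12.4% in the first, 14.5% and 11.0% in the second, and 91.3% and 90.0% in astrocyte-like cells. Free RNA can give a low level of astrocyte genes in the droplets of other cells, so the level of Gpc5 outside astrocyte-like cells was set beside that of the 8 astrocyte markers, each as a percent of its astrocyte level. In mature oligodendrocyte-like cells Gpc5 stood at 1.703% and 1.502%, under the lowest of the 8 markers in each library (2.33% and 2.56%). In microglia-like cells it stood at 2.19% and 2.04%, under the marker medians of 4.66% and 5.06%. Values of this size were not read as expression.

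CA1 and oligodendrocyte precursor-like cells stood apart from that background. In CA1 Gpc5 was at 9.86% and 9.61% of its astrocyte level, above all 8 astrocyte markers there, of which the highest, Aldoc, was at 2.75% and 5.89%. In precursor-like cells it was at 42.6% and 44.8%, beside marker medians of 6.14% and 5.30%. In no other class with at least 50 cells per library did Gpc5 exceed the highest marker in either library.

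**Figure D2:**
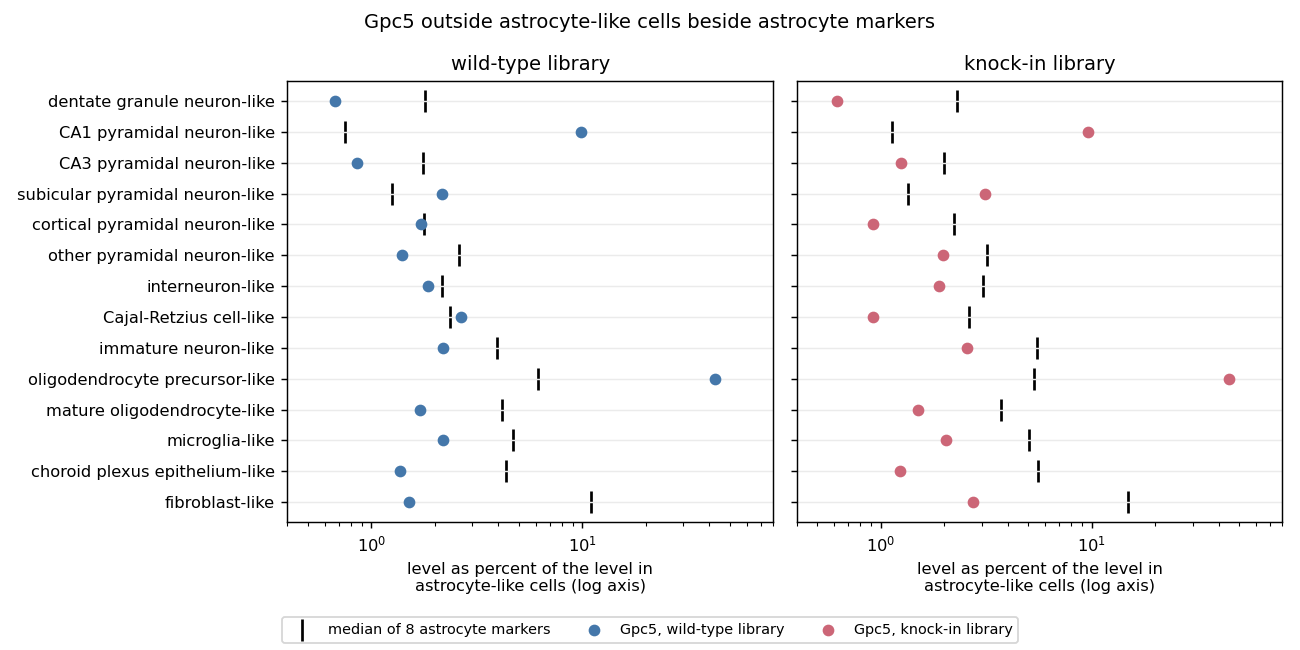
Gpc5 level in each class (rows) as a percent of its level in astrocyte-like cells (log axis), with a circle for Gpc5 and a vertical tick for the median of the 8 astrocyte markers, wild-type library left and knock-in library right. Gpc5 lies far to the right of the marker median in CA1 pyramidal neuron-like cells (9.86% and 9.61%) and oligodendrocyte precursor-like cells (42.6% and 44.8%).

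Gpc6 was spread over glial, meningeal and neuronal classes, with levels of at least 1 per 10000 in both libraries in 9 of the 15. Fibroblast-like cells, which make the collagen of the meninges and vessel walls, held 14.7 in wild-type and 13.6 in knock-in mice, with 86.2% and 87.1% of cells above 0. Astrocyte-like cells held 8.04 and 9.27, with 92.8% and 94.6% of cells above 0, and oligodendrocyte precursor-like cells 7.17 and 7.33. Interneuron-like cells, the inhibitory neurons, held 5.91 and 5.38. The library values of these 4 classes did not overlap one another. Dentate granule neuron-like cells were lowest, at 0.103 and 0.146. Outside the classes of 50 or more cells, mural cell-like cells of the vessel wall held 12.4 over 27 cells and 13.4 over 49, and a small unnamed cluster led by Slc47a1 and Bnc2 held 28.1 over 24 cells and 24.4 over 87.

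Pyramidal neurons differed strongly in Gpc6 by type. Pyramidal neuron-like cells in which fewer than 3 markers of any subfield counted, called of no subfield below, held 15.5 and 9.51. This class joined a pair of unlike clusters. In the cluster led by AC060761.1, Sgcz and Pdzrn3 the level was 28.1 over 108 wild-type cells and 26.0 over 78 knock-in cells. There 98.2% and 100% of cells were above 0, and Tshz2, a marker on the subicular list, was among the 10 leading genes. In the cluster led by Unc5d, Fhod3 and Efna5 it was 4.28 over 124 cells and 6.75 over 464. The class ratio of -0.70 thus joins a cluster ratio of -0.12 and another of 0.65, and with equal cluster weights it was 0.18. The CA3 value was 0.260 and 0.322, and that of CA1 0.616 and 1.35. Cortical pyramidal neuron-like cells held 3.05 and 1.83, subicular ones 1.03 and 1.69.

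Gpc5 and Gpc6 occurred together in most astrocyte-like and oligodendrocyte precursor-like cells. Both were above 0 in 91.0% of wild-type and 91.7% of knock-in astrocyte-like cells, and in 87.7% and 92.7% of oligodendrocyte precursor-like cells. The product of their separate shares gives 90.2% and 91.1% in astrocyte-like cells, close to the joint share. In interneuron-like cells, 42.7% and 37.8% had Gpc6 without Gpc5, and 13.4% and 15.7% had both. In fibroblast-like cells 45.9% and 52.0% had Gpc6 without Gpc5, and 40.4% and 35.1% had both.

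Gpc4 was a transcript of dentate granule neurons. In dentate granule neuron-like cells, which receive the cortical input of the hippocampus, the wild-type level was 2.42 per 10000 and the knock-in level 2.56, and 81.2% (79.2 to 83.2) and 82.8% (80.8 to 84.7) of these cells were above 0. This was 4.61-fold the next class in the wild-type library (CA1) and 3.14-fold that in the knock-in library (fibroblast-like cells). These neurons carried 72.7% and 64.5% of all Gpc4. Their 2 large clusters, led by C1ql2 and by Trpc6, held 2.48 and 2.58, and 2.45 and 2.62. A further, small cluster of 53 and 63 cells held 1.63 and 1.74, and Scrublet called 17 of its cells as doublets.

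All other classes with at least 50 cells per library lay below 1. CA1 held 0.525 and 0.554, Cajal-Retzius cell-like cells, which are early-born neurons of the outer layer, 0.488 and 0.589, and choroid plexus epithelium-like cells 0.519 and 0.418. Astrocyte-like cells held 0.454 and 0.465, with only 19.2% and 19.6% of cells above 0, and fibroblast-like cells 0.475 and 0.816. The library ranges of these 5 classes overlapped or lay within 0.1 of each other, so no order among them is given. As a percent of the dentate level, Gpc4 in astrocyte-like cells was at 18.8% and 18.1%. This was above the medians of the 8 dentate granule markers there (9.09% and 8.03%). It was within their range (4.18% to 48.8% and 2.43% to 58.6%), whose top was Tdo2 in both libraries. Whether these values reflect expression in astrocyte-like cells or free RNA was not tested. In subicular neurons Gpc4 stood at 10.6% and 8.59% of the dentate level. This was above the highest of the 8 markers there in each library (7.83% and 6.72%). In CA1 and in fibroblast-like cells it was above all 8 markers in the knock-in library only (21.59% against 21.15%, and 31.8% against 24.5%). CA3 held 0.0939 and 0.0555.

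Gpc3 was low in all classes of 50 or more cells, at no more than 0.610 and 0.586, both in fibroblast-like cells. Dentate granule neuron-like cells followed at 0.475 and 0.404, with 23.1% and 22.7% of cells above 0 and 51.9% and 32.7% of all Gpc3. The highest level was in the small mural cell-like class, at 2.40 over 27 wild-type and 1.76 over 49 knock-in cells, with 55.6% and 46.9% of cells above 0. Within CA1, Gpc3 was higher in the Pde11a and Dcn cluster, at 1.27 and 0.538, against 0.0365 and 0.0818 in the larger CA1 cluster. In the wild-type cells of the Pde11a cluster, 4 of 125 cells carried 48.7% of the summed value.

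Gpc1 was low, at no more than 0.113 per 10000 in any class of 50 or more cells. CA3 pyramidal neuron-like cells were first in both libraries, at 0.113 and 0.0916, with 11.1% (7.90 to 15.05) and 9.04% (6.31 to 12.5) of cells above 0. Cajal-Retzius cell-like cells were second, at 0.0938 and 0.0693, from 5 and 6 cells above 0. These ranges overlap. All 36 wild-type and 33 knock-in CA3 cells above 0 had a value of 1, and no ratio of Gpc1 by class was read.

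**Figure D3:**
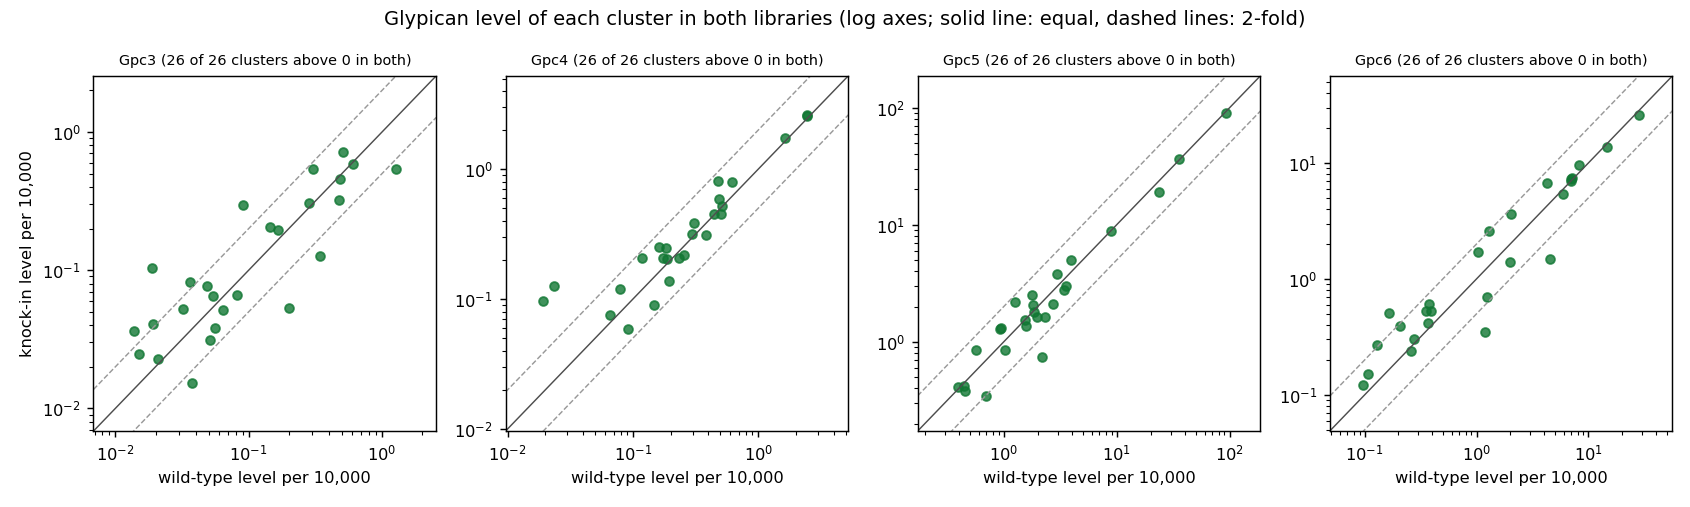
Level per 10000 of 4 glypicans in each of the 26 clusters with at least 50 cells in each library, wild-type library on the horizontal and knock-in library on the vertical axis, both log. The solid line marks equal levels and the dashed lines 2-fold differences; clusters at 5 or more in either library lie between the dashed lines.

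The libraries were then compared class by class with a rule of size: a log2 ratio of at least 1 in absolute size, a level reaching 1 in either library, and values above 0 in 10% or more of the cells where it did. Of the 75 pairs of a glypican and a class, 25 reached the limits of level and share, all of Gpc4, Gpc5 or Gpc6. Of these, 2 were past the rule. Over the same classes 367 of 31207 gene and class pairs were past it (1.18%). Over all cells, where 0.289% of genes were past the rule, no glypican was.

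In CA1 pyramidal neuron-like cells the knock-in level of Gpc6 was the higher, at 1.35 against 0.616, a ratio of 1.02. In that class 0.637% of all genes were past the rule and 0.425% were past it and higher. Values above 0 occurred in 20.3% (17.6 to 23.2) of wild-type and 27.7% (24.99 to 30.6) of knock-in cells. The mix of CA1 clusters moved with this difference. The Pde11a and Dcn cluster, where Gpc6 was 2.03 and 3.65, held 125 of 848 wild-type and 293 of 1021 knock-in CA1 cells, and the larger cluster, where it was 0.369 and 0.419, held the rest. With equal cluster weights the ratio was 0.56, and the difference was no longer past the rule. Inside the Pde11a cluster the ratio was 0.82, and inside the larger cluster 0.14. In the Pde11a cluster 41.6% (32.9 to 50.8) and 53.9% (48.0 to 59.7) of cells were above 0. These intervals overlap, which is not a test of the difference.

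In Cajal-Retzius cell-like cells the knock-in level of Gpc5 was the lower, at 0.739 against 2.19, a ratio of -1.45. In that class 1.70% of all genes were past the rule and 0.707% were past it and lower. The difference rested on 4 of the 63 wild-type cells, whose values of 40, 19, 12 and 12 made 70.9% of the summed value, while no knock-in cell exceeded 5. The shares of cells above 0 were 38.1% (26.2 to 51.2) and 35.6% (26.4 to 45.8). Without the 5% of cells of highest value the ratio was -0.33. The 8 astrocyte markers stood in these cells at 0 to 11.6% of their astrocyte level in the wild-type and at 0.885 to 19.98% in the knock-in library, beside 2.64% and 0.915% for Gpc5. Their part in the difference was not tested.

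Gpc6 was highest in the wild-type library in pyramidal neuron-like cells of no subfield, with the ratio of -0.70 given above. The ratio of Gpc5 was -0.039 in astrocyte-like and 0.033 in oligodendrocyte precursor-like cells. The ratio of Gpc4 in dentate granule neuron-like cells was 0.080, and that of Gpc6 was 0.20 in astrocyte-like and -0.10 in fibroblast-like cells. The median ratios of all genes in these last 4 classes lay between -0.084 and -0.048.

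**Figure D4:**
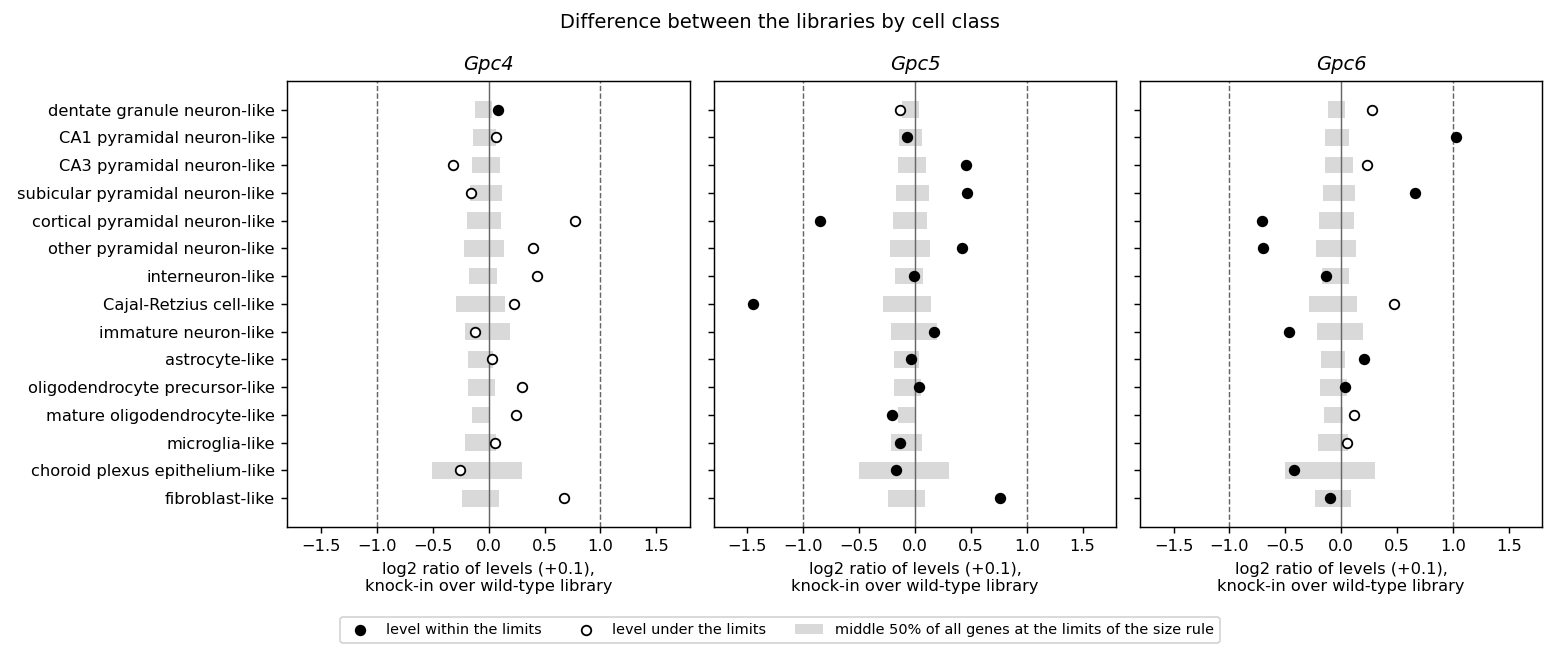
Log2 ratio of levels, knock-in over wild-type library (horizontal), for Gpc4, Gpc5 and Gpc6 in each class (rows); filled circles reach the limits of level and share, open circles do not, and grey bars span the middle 50% of all genes that reach them. Only Gpc6 in CA1 (1.02) and Gpc5 in Cajal-Retzius cell-like cells (-1.45) lie beyond the dashed lines at 1 and -1 among the filled circles.

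The genes most like each glypican in pattern were sought over the 26 clusters with at least 50 cells in each library, as the highest lower of the 2 libraries' Pearson r of log2 levels among 5188 genes. The clusters share libraries and depth correction, and the values are descriptions. Gpc5 was closest to Bcan, the brain proteoglycan brevican, with r of 0.87 in both libraries, then to Rgcc, the receptor gene Gpr37l1, Celrr and the transcription factor gene Rfx4. Gpc6 was closest to Farp1 (0.82 and 0.84), which encodes a synaptic exchange factor, then to the receptor phosphatase gene Ptprt, Bcl2, Pdzrn3 and Ntm, itself a GPI-anchored adhesion protein. Gpc4 was closest to Slc26a10 (0.78 and 0.79), then to Ahcyl2, Gm12216, Lca5 and the channel gene Trpc6, a dentate granule marker. For Gpc3, which stayed low, the closest were Col25a1 (0.74 and 0.74), Atrnl1, Greb1l, Airn and Itgbl1, and for Gpc1 Cntnap2 (0.70 and 0.73), Cacna1a, Uchl1, Rgs11 and Kifc2. Among the glypicans themselves, r was highest for Gpc3 with Gpc4 (0.40 and 0.47) and for Gpc5 with Gpc6 (0.35 and 0.44), the same pairs that are neighbours in the genome.

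Genes that make and modify heparan sulphate were described from lists. Of the 7 genes of chain initiation, only Xylt1, which adds the first sugar to the serine, reached 1 per 10000 over all cells, and it was highest in oligodendrocyte precursor-like cells at 32.0 and 30.1. Of the 5 genes of chain polymerisation only Ext1 did, highest in subicular neurons at 10.8 and 10.3. Neither was past the rule of size in any class. Of the 16 genes that modify the chains 5 reached 1 over all cells, 2 with a ratio above 0 and 3 below. Of all 2079 genes at that level, 568 had a ratio above 0 and 1511 below. Hs6st3, a 6-O-sulphotransferase, was highest in CA1 at 41.2 and 38.4, and Hs3st4, a 3-O-sulphotransferase, in cortical neurons at 42.7 and 40.1. Ndst3 and Ndst4, which start sulphation, were highest in subicular neurons at 9.22 and 9.70, and at 10.7 and 11.6. Hs2st1, a 2-O-sulphotransferase, was at 1.97 and 1.62 over all cells. Hs3st4 was past the rule in Cajal-Retzius cell-like cells (1.97 and 0.797) and in pyramidal neuron-like cells of no subfield (0.836 and 1.91), and Hs6st2 in choroid plexus epithelium-like cells (1.502 and 0.696). In the latter 2 classes 3.78% and 3.73% of all genes were past it, and in the first 1.70%.

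None of the 6 genes that edit or shed glypicans or their chains reached 1 over all cells. Sulf1, which removes 6-O-sulphate groups outside the cell, was at 11.1 and 5.09 in choroid plexus epithelium-like cells and at 0.820 and 1.92 in cortical neurons, where 0.964% of all genes were past the rule, and it was past the rule in both. The choroid cluster that Sulf1 helps to lead held 40 of 102 wild-type and 21 of 91 knock-in cells of that class, and this share moved with its level. Gdpd5, a phosphodiesterase that cleaves GPI anchors, was at 1.12 and 0.442 in immature neuron-like cells, where 1.00% of all genes were past the rule. Of 10 other heparan sulphate-bearing proteins or part-time carriers, Tgfbr3 and Nrp1 reached 1 over all cells, with ratios of 0.062 and -0.055.

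Of 18 genes of receptors, ligands and others linked to glypicans, not all of them known to bind one, 12 reached 1 over all cells. Of these 12, 4 had a ratio above 0 and 8 below, beside 568 above and 1511 below of all genes at that level. Their median was -0.047, beside -0.076 for all 2079 genes at that level. Lrrtm4, a postsynaptic partner of Gpc4, was highest in the same dentate granule neuron-like cells as Gpc4, at 75.6 and 62.1. Gpr158, an orphan receptor and a partner of Gpc4, was highest in Cajal-Retzius cell-like cells at 13.6 and 12.1 and stood at 6.47 and 6.18 in CA3. The receptor phosphatase genes Ptprs and Ptprd were at 2.25 and 2.17, and at 34.8 and 30.9, over all cells. Unc5d, a netrin receptor, was at 18.4 and 15.5 in pyramidal neuron-like cells of no subfield and at 16.0 and 15.8 in interneuron-like cells. In the former it was the leading gene of the cluster with the lower Gpc6 level (4.28 and 6.75), and it was not among the 10 leading genes of the cluster with the higher (28.1 and 26.0). The glutamate receptor genes Gria1 and Gria2 were at 15.4 and 13.2, and at 9.52 and 9.22, over all cells. Adgrl3, Robo1, Robo2, Slit2 and Fgfr2 had all-cell ratios of 0.0097, 0.19, -0.10, 0.13 and -0.19. Lrrtm4 and Slit2 were past the rule of size in pyramidal neuron-like cells of no subfield, at 10.9 and 25.4, and at 0.700 and 1.53. This is the class whose clusters held different shares of the libraries. Lrrtm4 was also past it in choroid plexus epithelium-like cells, at 2.76 and 7.89.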

How the data were processed

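The authors deposited 1 table of genes by cells for both libraries, whose whole-number values are used here as a score, since totals per cell lay in a narrow band and the name of the table points to correction for depth by the authors. Seurat 3.0.0 and build GRCm38 are named per the submitters' processing notes; the aligner, the cell filter and any doublet removal are not given in the sources used here.

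Cells were scaled to 10000 and log-transformed, and 2000 variable genes without sex-linked genes and glypicans, 30 principal components, 15 neighbours and Leiden resolution 1 gave the clusters (scanpy 1.11.5, Python 3.11.15). Clusters were named by the class of most markers (at least 3), each above 0 in 25% of its cells and 1.5-fold above other cells. A cluster stayed without a name when 3 of its 10 leading genes were mitochondrial, when another lineage exceeded 60% of its marker share, or when no marker led and under 40% of the list counted. This rule was set after the clusters were seen. Members, lists and markers were chosen with earlier results of these data known. All glypicans are named, with the 5 genes most like each and pathway genes at 1 per 10000 over all cells or past the rule of size in a class. Thinning was random with a fixed seed and acts on corrected values. Only the rule of size was tested on simulated data, drawn from the summed values of wild-type dentate granule neuron-like cells with known fold changes. That draw held no small class and no spread between cells. The coding stretch of Gpc1 is not reported here.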

Additional observations from a re-analysis of the deposited data

How the results depend on the processing

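Over all cells, giving each cluster the same weight in both libraries changed the sign of several log2 ratios. That of Gpc3 went from 0.071 to -0.059, that of Gpc4 from -0.063 to 0.093 and that of Gpc5 from 0.078 to -0.034. The ratio of Gpc6 fell to 0.069. Setting values of 1 to 0 gave 0.13 for Gpc5 and 0.45 for Gpc6, and an added value of 1 gave 0.29 for Gpc6. Leaving out the 5% of cells of highest value, an alternative chosen after seeing the data, gave 0.22 and 0.64. The number of glypican and class pairs past the rule of size, 2 in the report, was 0 with an added value of 1 and 0 with 15 principal components, 1 at resolution 2 and 1 with equal cluster weights, and 7 at a limit of 1.5-fold. Without the 5% of cells of highest value 2 were past it, but they were Gpc5 and Gpc6 in subicular neurons. The number of pairs at 1 per 10000 or more in both libraries fell from 20 to 10 without these cells. Of 248 class ratios under alternatives, over 25 pairs, 15 had the other sign. For 7 of these 15, the ratio in the report exceeded a counting spread taken from the shares of cells above 0. That spread does not cover the levels, and it is narrow where nearly all cells are above 0, as for Gpc5 in astrocyte-like cells. Exceeding it therefore does not place a ratio of levels beyond counting error. These 7 were of Gpc5 in CA1 (0.037), in pyramidal neurons of no subfield (-0.032) and of Gpc6 in the latter (0.18) with equal cluster weights, of Gpc5 in astrocyte-like cells (0.0019) and microglia-like cells (0.017) with values of 1 set to 0, of Gpc5 in cortical neurons (0.093) with 15 principal components, and of Gpc5 in fibroblast-like cells (-0.0064) without the cells of highest value. The other 8 were of Gpc6 in choroid plexus epithelium-like cells with equal cluster weights (0.19), of Gpc5 in immature neuron-like cells with 15 principal components (-0.024), at resolution 2 (-0.037) and without the cells of highest value (-0.33), and of Gpc5 in interneuron-like cells with values of 1 set to 0 (0.0071), as a mean over cells (0.00084), at resolution 2 (0.30) and without the cells of highest value (0.072). The cause was not tested. With 15 principal components no class of pyramidal neurons without a subfield was named, and over all cells clustering enters only through the equal weights. Gpc4 was highest in dentate granule and Gpc5 in astrocyte-like cells under all alternatives that could change the order, while Gpc6 in the wild-type library was highest in fibroblast-like cells with 15 principal components, at resolution 2 and with equal cluster weights. No paired analysis was possible because each genotype is 1 library. Depth is unknown in corrected values, which limits what can be said of Gpc1 and Gpc3.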

Other observations

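Gpc6 was above 0 in 27.5% (exact 95% interval 24.1 to 31.0) of wild-type and 13.3% (11.2 to 15.7) of knock-in microglia-like cells, although its level there was 0.493 and 0.516. The difference in shares came largely from a single microglia-like cluster, led by Cst3 and Tyrobp, where 67.0% of 188 wild-type and 10.4% of 164 knock-in cells were above 0, at levels of 1.19 and 0.345. In an unnamed cluster led by mitochondrial ribosomal RNA the shares were 60.5% and 20.6%. After thinning to a total of 1000, the shares over all microglia-like cells were 5.99% and 3.30%. Shares of microglia-like cells with a value of at least 2 went the other way, at 4.67% and 8.59%. The higher wild-type share above 0 thus lay in values of 1. No order is read from the shares above 0, since they go against the level of the class.

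In the cortical pyramidal neuron-like cluster led by Gm28928, Gpc6 was at 4.49 over 105 wild-type and 1.49 over 224 knock-in cells. The cells with a value of at least 10 were 13 and 9 in number, which is 12.4% and 4.02% of the cluster. The other cortical cluster, led by Vwc2l, went the other way, at 1.30 and 2.58.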
